A study of Mus musculus with 30 samples.

Results

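Loss of interleukin-34 (IL-34) by gene deletion and by a blocking antibody was compared in RNA from isolated microglia of the mouse forebrain, and the comparison described here is the effect of gene deletion minus the effect of antibody treatment. It uses the 15 libraries labelled as isolated microglia, out of 30 libraries in all. The genotype experiment gave 4 libraries from Il34 heterozygous animals (Het) and 3 from Il34 knockout animals (KO). The antibody experiment gave 4 libraries from wild-type animals treated with a-gp120, the control antibody, and 4 from wild-type animals treated with a-IL34, the blocking antibody. Each library carries the number of 1 animal, and the cells were isolated from one side of the brain by an antibody to CD11b after saline perfusion, with whole forebrain of the same animals sequenced as well. CD11b is a surface protein of microglia and also of monocytes, neutrophils and other macrophages. Het and a-gp120 had 2 males and 2 females each, KO 1 male (animal 3) and 2 females, and a-IL34 3 males and 1 female (animal 11). Neither how old the mice were nor how much antibody they received, and when, is given in the sources used here. Het animals carry 1 intact copy of Il34 where the labels' wild-type antibody controls carry no deletion, so the references of the 2 effects differ in genotype as well as in treatment. Animal numbers 1 and 24 occur in both experiments, but the series' design describes the genotype animals as Il34 mutants and the antibody animals as wild-type, so they are taken as different animals. The route of IL-34 loss and the experiment it was studied in cannot be told apart.

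IL-34 is a cytokine made mainly by neurons in the forebrain and by keratinocytes in skin. It binds CSF1R, the receptor tyrosine kinase that it shares with the ligand CSF1 and on which microglia depend for survival. A deletion removes the cytokine throughout life, while an antibody blocks it after it has been made and is itself an immunoglobulin that Fc receptors can bind. Interferons are cytokines of antiviral defence that act through STAT proteins and IRF9 on response elements in the promoters of their target genes.

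Levels are given in CPM, the counts of a gene per M counts of its library, with the library sizes scaled by edgeR's TMM method. Effects are log2 fold changes from a fit over all 15 libraries with sex as a covariate. A negative difference means that a gene was lower after deletion than after antibody, each relative to its own control. The 15 libraries held between 15.8 and 50.5 M counts. Genes that define microglia were abundant in every arm: P2ry12, a purine receptor used to mark them, stood between 373 and 2743 CPM. Other cell types were present too. The mean log2 CPM of 12 astrocyte markers ran from 7.11 to 8.71 in Het, 8.98 to 9.11 in KO, 7.58 to 9.30 in a-gp120 and 8.52 to 9.40 in a-IL34, and the part of this in the results below was not tested.

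Both routes lowered many of the same genes. The genes with an unadjusted edgeR p under 0.05 for the difference lay mostly on one side, though none passed the adjusted threshold. Of 18732 genes tested, 2327 fell with deletion (12.4%) and 407 rose (2.17%), while 851 fell with antibody (4.54%) and 137 rose (0.731%), at a Benjamini-Hochberg adjusted edgeR p under 0.05. Among these, 769 passed for both routes with the same sign and none with opposite signs. For the difference itself 0 genes (0%) passed with edgeR, the smallest adjusted p being 0.654, and 0 with limma (740 and 1018 genes at an unadjusted p under 0.05), while DESeq2 called 35 genes, 34 of them lower, with 10 genes of the type I interferon list and 5 of the MHC class I list among the 35. At an unadjusted edgeR p under 0.05 the difference was lower for 619 genes (3.3%) and higher for 121 (0.646%). The median difference over all genes was -0.01 with a median SE of 0.325. At an unadjusted p under 0.05, chance alone would be expected to give more genes than the 740 of edgeR and nearly as many as the 1018 of limma. These unadjusted counts are used below as a description, since no single gene passed the adjusted threshold in the edgeR fit.

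The size of these counts depended on single animals. Without a-gp120 animal 1 the difference had 5 called genes, Mx2, Lgals3bp, Bst2, Ifi27l2a and Phf11b, all lower, which were named after their values were seen. The 2734 genes called for deletion became 6278 without Het 1, 1487 without Het 21, 1493 without Het 23, 794 without KO 3, 1221 without KO 6, 1584 without KO 24 and 5658 without a-gp120 15. The 988 called for antibody became 1752 without Het 21, 648 without Het 23, 344 without a-gp120 1, 387 without a-gp120 7, 364 without a-gp120 8, 5340 without a-gp120 15, 416 without a-IL34 2, 376 without a-IL34 10, 1744 without a-IL34 11 and 312 without a-IL34 24.

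Of the 619 genes with a lower difference, 231 had fallen with deletion alone, 81 had risen with antibody alone, 57 had changed in the same direction with both and 250 with neither. Of the 121 with a higher difference, 23 had risen with deletion alone, 15 had fallen with antibody alone, 3 had changed with both and 80 with neither. Over all 18732 genes tested, 1574 had fallen and 391 risen with deletion alone, 98 had fallen and 121 risen with antibody alone, 769 had changed with both and 15779 with neither. A gene called for one route and not for the other is not thereby shown to differ between them.

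**Figure D1:**
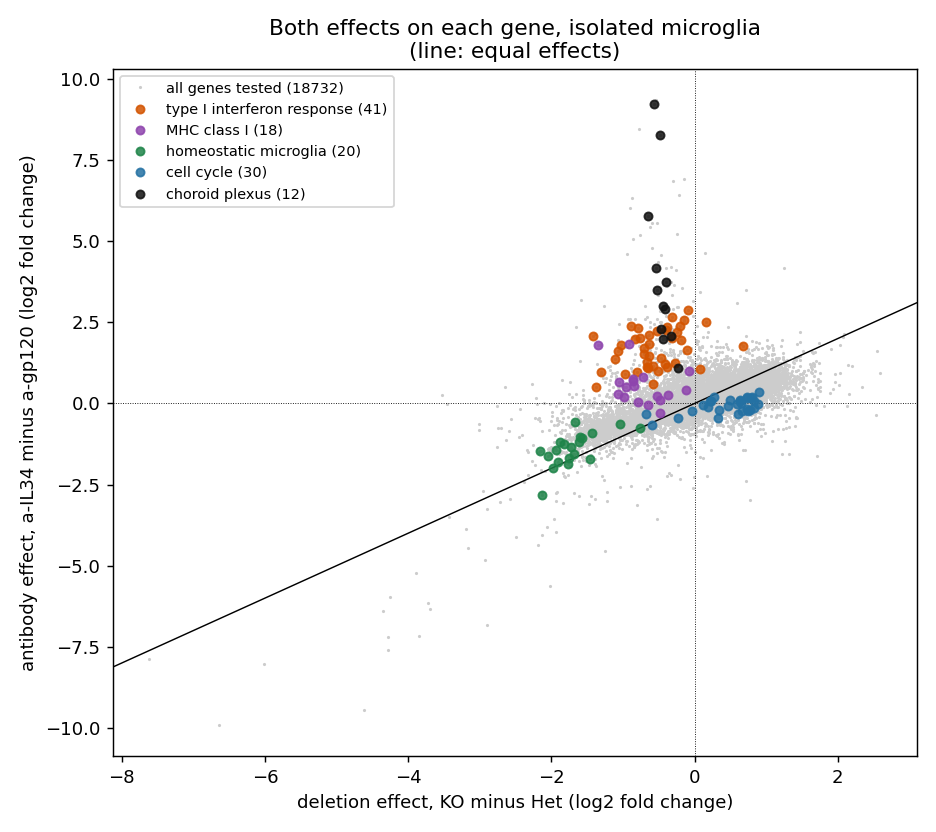
Deletion effect (KO minus Het, x axis) against antibody effect (a-IL34 minus a-gp120, y axis), both as log2 fold changes, for 18732 genes (grey) and 5 gene lists (colours); the line marks equal effects. Type I interferon, MHC class I and choroid plexus genes lie above the line, homeostatic microglia genes lie low on both axes, and cell cycle genes lie to the right near an antibody effect of 0.

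The type I interferon response, a list of genes that interferon induces, was higher after antibody and not after deletion. All 41 genes of the list were tested and all 41 differences were below 0, with a median of -2.34 against -0.01 over all genes. The difference was lower at an unadjusted edgeR p under 0.05 for 40 of the 41, where 3.3% of all genes were. The exception was Oas3, a synthetase of the 2-5A antiviral pathway (difference -2.15, SE 1.20). This list and those below were chosen with earlier results of these data known, so such shares are a description and not independent support. The median antibody effect was 1.71 and the median deletion effect -0.58. With antibody 25 genes rose at an adjusted p under 0.05, where 0.731% of all genes did, and none fell. With deletion 2 fell, Slfn8 and Epsti1, a smaller share than the 12.4% of all genes. These 2 became 4 without Het 1, 6 without a-gp120 1, 1 without Het 20 or Het 21 and 0 without KO 3 or KO 24. In 13 of the 41 every a-IL34 library was above every a-gp120 library, against 3.9% of all genes. Deletion effects ran from -1.42 for Mx1 to 0.68 for Cmpk2, an enzyme of nucleotide synthesis.

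The levels differed between animals of an arm. The mean log2 CPM of the 41 genes was 3.25 to 4.24 in Het and 2.75 to 3.80 in KO, where the arms overlapped. It was 5.19 in a-gp120 animal 1 and 3.65 to 3.89 in the other a-gp120 animals. In a-IL34 it was 5.08 in animal 10 and 5.92 to 6.48 in the other 3, so that animal 1 of the controls stood just above the lowest treated animal. That control also had the highest neutrophil and monocyte mean of its arm (below), and the part of this was not tested. The count of 40 stayed between 35 and 41 when any 1 library was left out. The 25 genes called for antibody became 12 without Het 23, 16 without KO 3, 15 without KO 24, 3 without a-gp120 7, 4 without a-gp120 8, 5 without a-IL34 2, 14 without a-IL34 11 and 5 without a-IL34 24.

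Mx2, an interferon-induced antiviral GTPase, is given in full. Its levels were 11.5, 17.5, 14.4 and 17 CPM in Het animals 1, 20, 21 and 23 and 8.82, 10.3 and 9.40 CPM in KO animals 3, 6 and 24. In a-gp120 animals 1, 7, 8 and 15 it stood at 23.5, 11.3, 12.5 and 11.9 CPM and in a-IL34 animals 2, 10, 11 and 24 at 47.1, 24.1, 36.7 and 38.2 CPM. Every a-IL34 library was above every a-gp120 library, and every KO library below every Het library. The antibody effect was 1.29 (SE 0.256, adjusted edgeR p 0.0139), the deletion effect -0.67 (adjusted edgeR p 0.101) and the difference -1.96, with a 95% interval from -2.78 to -1.14. The antibody call of Mx2 was lost without a-gp120 7 or a-gp120 8. Leaving out single libraries moved the difference between -2.39 and -1.83.

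Lgals3bp, a secreted glycoprotein that binds galectin-3, had a difference of -2.70 (SE 0.553, unadjusted edgeR p 0.000287). It stood at 483, 233, 439.5 and 399.8 CPM in a-IL34 and at 235, 91.9, 93.6 and 82.6 CPM in a-gp120, where animal 1 again reached the lowest a-IL34 level. In Het it was at 53.5, 104, 102 and 77.3 CPM and in KO at 28.3, 53.6 and 37.9 CPM, so the genotype arms overlapped by the smallest of margins. Irf7, the transcription factor that amplifies interferon production, stood at 131, 44.0, 79.5 and 101 CPM in a-IL34 against 39.1, 9.69, 8.32 and 9.70 CPM in a-gp120. Its levels were 4.56, 14.8, 11.0 and 6.72 CPM in Het and 2.43, 7.48 and 4.81 CPM in KO, which overlap. Irf7 rose with antibody by 2.38 (SE 0.569, adjusted edgeR p 0.0313), and its difference was -3.26 (SE 0.855). The rise of Irf7 lost its call without a-gp120 7, a-gp120 8, a-IL34 2 or a-IL34 24. Rsad2, which makes a chain-terminating nucleotide, rose with antibody by 2.26 (adjusted edgeR p 0.0133) with a deletion effect of -0.40 (adjusted edgeR p 0.555), and its call was lost without a-gp120 7.

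Slfn8 and Epsti1 departed from the other genes of the list in that their deletion effect carried more of the difference. Slfn8, a Schlafen family gene, fell with deletion by 1.30 on the log2 scale (adjusted edgeR p 0.0311), from 34.3, 53.0, 49.1 and 33.1 CPM in Het to 15.3, 22.7 and 12.5 CPM in KO. Epsti1 fell by 1.38 on the log2 scale (adjusted edgeR p 0.0151) and had an antibody effect of 0.50 (adjusted edgeR p 0.236). Both deletion calls were lost when single libraries were left out: Het 20, Het 21, KO 3 or KO 24 for Slfn8 and KO 3 or KO 24 for Epsti1.

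The promoters of interferon-induced genes carry the interferon-stimulated response element, whose core was searched for as GAAANNGAAA on both strands (the other strand reads TTTCNNTTTC, and overlapping matches were allowed) in the 250 bases before each RefSeq start on GRCm38.p6. A match was found in 14 of 29 type I interferon genes with a promoter in that table (48.3%), in 3 of 16 MHC class I genes (18.8%), in 9 of 12 genes of the interferon-gamma list (75%), in 0 of 12 homeostatic microglia genes and in 1 of 25 cell cycle genes (4%). One was present in 936 of all 27025 genes with a promoter there (3.46%), and 2.98% of all promoters did. The windows below are shown to let the element be seen in genes of the 3 interferon-related lists whose difference was lower at an unadjusted edgeR p under 0.05; capitals mark the matches.
Slfn8 (chr11:83020814-83020893, minus strand): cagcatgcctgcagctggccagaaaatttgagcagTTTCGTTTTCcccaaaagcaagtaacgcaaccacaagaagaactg
Rsad2 (chr12:26456528-26456607, minus strand): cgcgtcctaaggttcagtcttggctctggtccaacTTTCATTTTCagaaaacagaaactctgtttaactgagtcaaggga
Isg15 (chr4:156200840-156200919, minus strand): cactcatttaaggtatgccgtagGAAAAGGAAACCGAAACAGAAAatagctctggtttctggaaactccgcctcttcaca
Ifit3b (chr19:34607768-34607847, plus strand): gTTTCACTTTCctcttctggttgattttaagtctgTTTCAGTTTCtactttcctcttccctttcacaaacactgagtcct
H2-T22 (chr17:36042889-36042968, minus strand): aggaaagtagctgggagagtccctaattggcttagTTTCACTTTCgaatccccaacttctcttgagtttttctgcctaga
B2m (chr2:122147513-122147592, plus strand): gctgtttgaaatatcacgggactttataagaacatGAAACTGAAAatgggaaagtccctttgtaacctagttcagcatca
Cxcl10 (chr5:92349058-92349137, minus strand): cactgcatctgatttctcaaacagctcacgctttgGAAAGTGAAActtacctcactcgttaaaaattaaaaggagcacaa
Isg15, a ubiquitin-like modifier, held 3 overlapping matches and Ifit3b 2 separate ones. Isg15 was at 36.3, 9.33, 16.9 and 25.1 CPM in a-IL34, 10.2, 2.71, 3.21 and 3.99 CPM in a-gp120, 1.5 to 5.79 CPM in Het and 1.67 to 3.74 CPM in KO. A match says only that these letters are in the window. Ifit2, whose antibody effect is described below, had no match in its window, and Mx2 is not in the promoter table.

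Genes that make, sense or relay interferon formed a separate list. Of 17 ligands, receptors and sensors tested, 7 had a lower difference at an unadjusted edgeR p under 0.05, where 3.3% of all genes did, and the median was -0.46. With deletion 11 of the 17 fell at an adjusted p under 0.05, where 12.4% of all genes did, and with antibody 2, where 4.54% did. The medians were -0.72 with deletion and -0.37 with antibody, and in 5 of the 17 every a-IL34 library lay below every a-gp120 library, against 12.4% of all genes. The 7 lower differences were 3 without Het 21, KO 3, KO 6, a-IL34 2 or a-IL34 11, 4 without KO 24 or a-gp120 15 and 2 without a-gp120 7. The 2 falls with antibody became 9 without a-gp120 15, 4 without Het 21 and 1 without a-gp120 1, a-IL34 10 or a-IL34 24. The 11 falls with deletion became 7 without Het 23, 4 without KO 3, 6 without KO 6 and 6 without KO 24. Cgas, the sensor of cytosolic DNA, fell with deletion by 1.38 on the log2 scale (adjusted edgeR p 0.00402) and had an antibody effect of -0.31 (adjusted edgeR p 0.341). It stood at 18.7, 25.4, 39.5 and 24.5 CPM in Het, 10.0, 11.2 and 9.58 CPM in KO, 43.5, 34, 35.9 and 29.8 CPM in a-gp120 and 36.0, 19.9, 32.1 and 29.2 CPM in a-IL34. The KO libraries lay below all others, and the antibody arms overlapped. Tlr7, the endosomal receptor for single-stranded RNA, fell with deletion by 1.59 (adjusted edgeR p 0.00336), with no overlap between arms in either experiment, an antibody effect of -0.74 (adjusted edgeR p 0.0928) and a difference of -0.85 (SE 0.373). Irf9, a DNA-binding factor of interferon signalling, had a difference of -1.20 (SE 0.370) made up of 0.49 with antibody and -0.71 with deletion, neither past the threshold.

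Ifnb1, the gene of interferon beta, was close to the limit of detection. It was at 1.74, 1.11, 1.02 and 1.5 CPM in a-IL34, at 0.487, 0.432, 0.378 and 0.350 CPM in a-gp120, at 0.0577, 0, 0.702 and 0.636 CPM in Het and at 0.424, 0.0923 and 0.135 CPM in KO. Every a-IL34 library was above all 11 others. The antibody effect was 1.53, with an adjusted edgeR p of 0.140, above the threshold.

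MHC class I genes, which encode the molecules that present peptides from inside the cell and the machinery that loads them, had a lower difference for 15 of 18 genes at an unadjusted edgeR p under 0.05, where 3.3% of all genes did, and the count was 9 without KO animal 3. All 18 differences were below 0, with a median of -1.28. The median was -0.82 for deletion and 0.46 for antibody. At an adjusted p under 0.05 only 2 of the 18 fell with deletion, B2m and Tap2, near the 12.4% of all genes, and 3 rose with antibody, where 0.731% of all genes did. The 2 became 12 without Het 1, 10 without a-gp120 15, 7 without a-gp120 1, 5 without a-IL34 10, 0 without KO 3, 2 without KO 6 and 1 without any other single library, and the 3 became 1 without a-gp120 8. In 9 of the 18 genes every KO library lay below every Het library, against 18.9% of all genes, and in 3 every a-IL34 library lay above every a-gp120 library, against 3.9% of all genes.

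Within the group, the 3 genes that rose with antibody were the non-classical chains H2-Q7, H2-Q6 and H2-T22. H2-Q7 was at 49.6, 24.1, 48.6 and 38.2 CPM in a-IL34 and at 17, 10.4, 12 and 6.67 CPM in a-gp120, with no overlap. In Het it was at 2.88, 6.96, 6.25 and 10.3 CPM and in KO at 2.45, 4.27 and 4.23 CPM, which overlap. Its antibody effect was 1.82 (SE 0.357, adjusted edgeR p 0.0132) and its difference -2.74 (SE 0.539). H2-Q6 had antibody and deletion effects of 1.79 (adjusted edgeR p 0.0325) and -1.34 (adjusted edgeR p 0.0711). The antibody call was lost for H2-Q7 without a-gp120 8, and for H2-Q6 without a-gp120 7, a-gp120 8, a-IL34 2, a-IL34 11 or a-IL34 24. H2-Q genes are near-identical copies, and how reads were shared between them is uncertain.

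The common light chain showed the other balance. B2m fell with deletion by 1.07 on the log2 scale (adjusted edgeR p 0.0173), from 449, 516, 885 and 632 CPM in Het to 259.7, 332 and 294 CPM in KO, and had an antibody effect of 0.30 (adjusted edgeR p 0.371). The fall lost its call without KO 3. Tap1, a subunit of the peptide transporter, had a difference of -1.53 (SE 0.534) with neither effect past the threshold. Psmb10, a subunit of the immunoproteasome, differed by -0.53 (SE 0.240), and Erap1, the trimming peptidase, by -0.19 (SE 0.244).

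Chemokines that interferon induces gave the gene with the smallest p of the whole comparison. Cxcl9, a ligand of CXCR3 on T cells (chr5:92321347-92328079 in GRCm38), stood at 4.85, 2.17, 4.24 and 6.29 CPM in a-IL34 and at 0.569, 0.308, 0.126 and 0.787 CPM in a-gp120. In Het it was at 0.115, 0.618, 0.842 and 0.636 CPM and in KO at 0.165, 0.254 and 0.135 CPM. Only the a-IL34 libraries stood above 1 CPM. It rose with antibody by 3.18 (SE 0.516, adjusted edgeR p 0.00564), its difference was -4.76 (95% interval -6.54 to -2.98, unadjusted edgeR p 6.08e-05), and the rise passed in all 15 fits that left out 1 library. Cxcl10, also a ligand of CXCR3, and Ccl5, which attracts T cells, rose with antibody by 1.82 (adjusted edgeR p 0.0223) and 2.01 (adjusted edgeR p 0.00995), the first losing its call without a-gp120 1, a-gp120 7, a-IL34 2 or a-IL34 24. Of 17 chemokines tested 5 had a lower difference at an unadjusted edgeR p under 0.05, and of 19 genes in the interferon-gamma list 4 did, where 3.3% of all genes did, Cxcl9 and Cxcl10 among them. The others were Ccl12 and Ccl4 for the chemokines, beside Ccl5, and Irgm1 and Gbp3 for the interferon-gamma list. The count of 4 became 2 without KO 3, 10 without KO 6, 7 without a-gp120 1 and 7 without a-IL34 10.

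**Figure D2:**
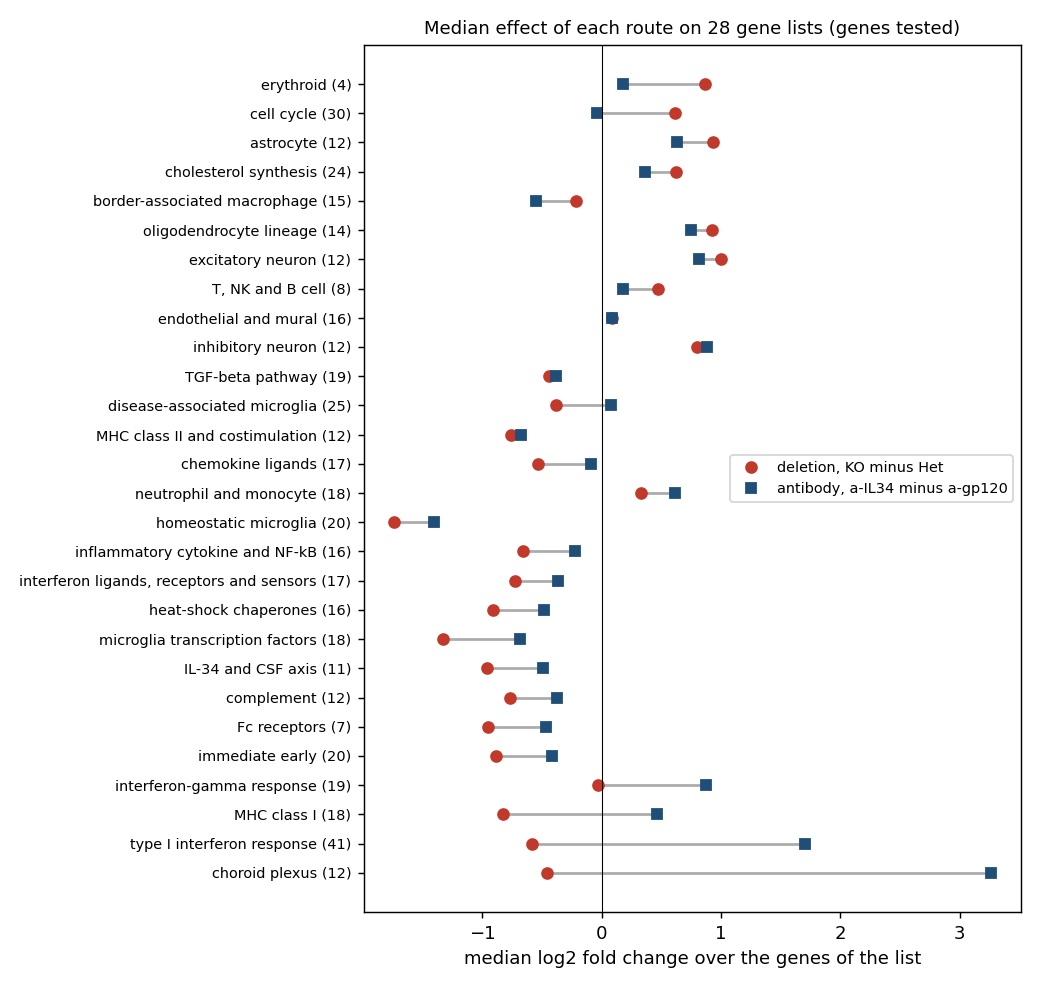
Median log2 fold change of each of 28 gene lists with deletion (circles) and antibody (squares), ordered by the median difference, with the number of genes tested in brackets. Choroid plexus, type I interferon and MHC class I lists lie at the bottom with antibody medians of 3.26, 1.71 and 0.46, while the homeostatic list has medians of -1.74 and -1.40 close together.

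A second set of genes fell with deletion and stayed near their control level with antibody. By the rule of an adjusted p under 0.05 for deletion and an antibody effect within 0.25 of 0, the 5 with the smallest p of the difference were taken, of which Glrp1, Arhgap22, Coro2a and Fcgr1 are described. Being chosen for both effects, their values are a description. Fewer cells of a type and less RNA per cell cannot be told apart in these libraries, here or for the genes below.

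Glrp1 (chr1:88499871-88510066), a little-studied gene for a glutamine-rich protein, was at 6.06, 6.57, 6.04 and 5.08 CPM in Het and at 1.72, 1.78 and 2.07 CPM in KO. It stood at 7.84, 5.98, 8.13 and 4.75 CPM in a-gp120 and at 5.43, 4.42, 7.84 and 5.63 CPM in a-IL34. The KO libraries were below all 12 others and the antibody arms overlapped. The deletion effect was -1.70 (SE 0.236), the antibody effect -0.18 (SE 0.203) and the difference -1.53 (95% interval -2.19 to -0.86). Arhgap22, a regulator that switches off the GTPase RAC1, had effects of -1.24 and 0.03, and its KO libraries, at 38.9 to 43.8 CPM, again lay below all others.

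Fcgr1, the high-affinity receptor for IgG (chr3:96282909-96293969), was at 94.0, 123, 163 and 104 CPM in Het and 38.3, 54.7 and 35 CPM in KO. With a-gp120 it stood at 224, 135, 144 and 119 CPM and with a-IL34 at 194, 102, 165 and 171 CPM. The antibody arms overlapped throughout. Its effects were -1.47 (SE 0.285) and 0.00 (SE 0.252), a difference of -1.47 (95% interval -2.30 to -0.66). Coro2a, an actin-binding coronin, had effects of -0.72 and 0.20. The deletion calls of Glrp1, Arhgap22 and Coro2a held in all 15 fits that left out 1 library, and that of Fcgr1 in 14, being lost without KO 3.

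Among the 7 Fc receptors, 3 had a lower difference at an unadjusted edgeR p under 0.05, where 3.3% of all genes did: Fcgr1, Trim21 and Fcgr4. The count was 1 without Het 20, KO 3, KO 24 or a-gp120 7. Trim21, the cytosolic antibody receptor and itself induced by interferon, had effects of -0.73 and 0.29, and Fcgr4, an activating receptor for IgG2, of -0.58 and 0.78, none past the threshold. Fcgr3 and Fcer1g, the low-affinity receptor and its signalling chain, had differences of -0.48 (SE 0.325) and -0.54 (SE 0.324).

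Of 12 complement genes tested, 4 had a lower difference at an unadjusted edgeR p under 0.05, where 3.3% of all genes did: C4b, C3, C1qa and C1qb. The count was 2 without Het 23 or a-IL34 11, 1 without KO 3 and 0 without a-gp120 7. C1qa, a chain of the initiator C1q that microglia make, fell with deletion by 1.39 on the log2 scale (adjusted edgeR p 0.00248), from 483, 501, 813 and 615 CPM to 209.5, 248 and 232 CPM, and had an antibody effect of -0.66 (adjusted edgeR p 0.0793). C4b, a substrate of activated C1, rose with antibody by 1.10 (adjusted edgeR p 0.0193) and had a deletion effect of 0.20 (adjusted edgeR p 0.573). It stood at 213, 116, 156 and 215 CPM in a-IL34, above the 56.5 to 103 CPM of a-gp120, and at 39.8 to 64.2 CPM in all genotype libraries. The rise of C4b lost its call without a-gp120 7, a-IL34 2 or a-IL34 24.

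Of 18 transcription factors of microglia tested, 15 fell with deletion at an adjusted p under 0.05, where 12.4% of all genes did (9 without KO animal 3). With antibody 6 fell, where 4.54% of all genes did, and this became 10 without Het 1, 11 without Het 21, 13 without a-gp120 15 and 3 without a-gp120 1, a-IL34 2, a-IL34 10 or a-IL34 24. The medians were -1.33 for deletion and -0.68 for antibody. A lower difference at an unadjusted edgeR p under 0.05 was seen for 3, Batf3 and Runx1 among them, and became 6 without Het 1 and 1 without Het 21, KO 3 or a-IL34 11. Runx1, a factor of blood cell development, was at 108 to 110.0 CPM in KO against 177 to 331 CPM in Het, with no overlap, and at 170.0 to 305 CPM in a-IL34 against 207 to 383 CPM in a-gp120, which overlap. It fell with deletion by 1.23 (adjusted edgeR p 0.0116), its antibody effect was -0.39 (adjusted edgeR p 0.282) and its difference -0.84 (SE 0.366). Batf3, an AP-1 family factor, fell with deletion by 1.42 (adjusted edgeR p 0.0197), and its antibody effect was -0.30 (adjusted edgeR p 0.501). The falls of Runx1 and Batf3 lost their call without KO 3, and that of Batf3 also without KO 6. Sall1, the factor that keeps microglial identity, fell with both, by 1.44 and 0.92 on the log2 scale, and its difference was -0.52 (SE 0.249).

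**Figure D3:**
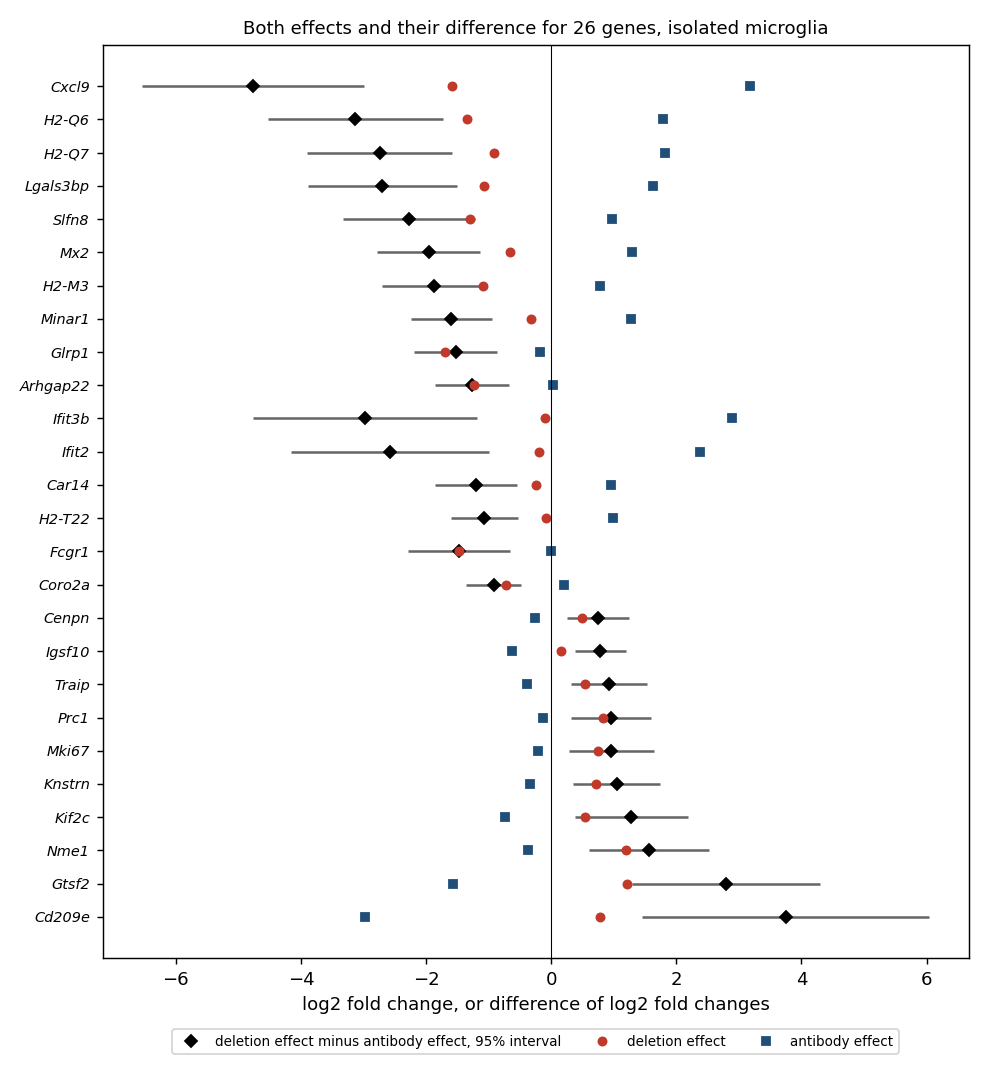
Deletion effect (circles), antibody effect (squares) and their difference with its 95% interval (diamonds and bars) for 26 genes: the 10 with the smallest p in each direction and genes chosen as moving with one route. All values are log2 fold changes. Cxcl9, H2-Q6 and H2-Q7 have squares far to the right, while Glrp1, Arhgap22 and Fcgr1 have squares near 0 and circles to the left.

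The genes chosen by the reverse rule, called for antibody with a deletion effect within 0.25 of 0, were H2-T22, Igsf10, Car14, Ifit3b and Ifit2. The calls of H2-T22 and Ifit3b held in all 15 fits that left out 1 library. Those of the others were lost without a-gp120 1 or 7 for Igsf10, without a-gp120 7 or 8 or a-IL34 2 or 24 for Ifit2, and without a-gp120 1, 7 or 8 or a-IL34 10 or 24 for Car14. H2-T22, a non-classical MHC class I chain, was at 43.5, 26.8, 31.8 and 39.5 CPM in a-IL34, above the 14.9 to 22.5 CPM of a-gp120, while Het (14 to 16.1 CPM) and KO (12.2 to 15.6 CPM) overlapped. Its effects were 0.99 (SE 0.167) with antibody and -0.08 (SE 0.179) with deletion. Ifit3b and Ifit2, antiviral proteins with tetratricopeptide repeats, had antibody effects of 2.89 and 2.38 and deletion effects of -0.10 and -0.20. Ifit3b shares its printed promoter stretch with its neighbour Ifit3, and the division of reads between these near-identical genes is uncertain. Igsf10, an immunoglobulin superfamily gene whose span overlaps Med12l, had an antibody effect of -0.63 (SE 0.125) and a deletion effect of 0.16, the one gene of the 5 that fell with antibody.

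Car14, a membrane carbonic anhydrase, and Minar1, a regulator of Notch signalling, stood apart from the interferon genes in their control levels. Car14 was at 12.2 to 22.4 CPM in Het and 13.3 to 15.2 CPM in KO, but at 5.48 to 5.92 CPM in a-gp120 and 9.32 to 14.1 CPM in a-IL34. Minar1 was at 8.71 to 11.3 CPM in Het, 7.6 to 8.51 CPM in KO, 2.71 to 3.65 CPM in a-gp120 and 5.11 to 10.8 CPM in a-IL34. The a-gp120 arm was the low one for both, as it was for choroid plexus genes (below), and the part of this in their differences was not tested.

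Axl, a receptor tyrosine kinase that clears apoptotic cells and is counted among the disease-associated microglia genes, rose with antibody by 0.84 (SE 0.134, adjusted edgeR p 0.00519). It stood at 302, 184, 233 and 248 CPM in a-IL34 against 122 to 143 CPM in a-gp120, and at 127 to 146 CPM in KO against 106 to 113 CPM in Het. Neither pair overlapped, and the deletion effect was 0.29 with an adjusted edgeR p of 0.142. Of the 25 genes of that list 5 had a lower difference at an unadjusted edgeR p under 0.05, where 3.3% of all genes did (8 without Het 1 or a-gp120 1). The median was -0.22. Trem2, a lipid receptor of microglia, fell with both routes, by 1.57 with deletion and 0.88 with antibody on the log2 scale, and its difference of -0.68 (SE 0.232) had an unadjusted edgeR p of 0.0110. Gpnmb and Cd52 had differences of -1.23 (SE 0.383) and -1.11 (SE 0.352) with no effect of either route past the threshold.

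Homeostatic microglia genes fell with both routes. All 20 fell with deletion at an adjusted p under 0.05, where 12.4% of all genes did, and 19 fell with antibody, where 4.54% did, Lag3 being the exception. The medians were -1.74 and -1.40, and 16 of the 20 differences were below 0, with a median of -0.41. P2ry12 went from 1272, 1495, 2743 and 1701 CPM in Het to 412, 460.2 and 518 CPM in KO, and from 2036, 1666, 1576 and 1861 CPM in a-gp120 to 419, 373, 618 and 382 CPM in a-IL34. Both effects were -1.98, and the difference was 0.00 (SE 0.362), with a 95% interval from -0.78 to 0.78. Of the 20 genes 8 had a 95% interval of the difference inside -1 to 1, a share below that of all genes (52.7%). For the other 12, differences of more than 1 on the log2 scale lie inside the interval.

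Lag3, Crybb1 and Selplg had a lower difference at an unadjusted edgeR p under 0.05. Lag3, an inhibitory receptor that binds MHC class II, fell with deletion by 1.67 (adjusted edgeR p 0.00223), from 89.7, 114, 185 and 132 CPM to 33.5, 41.6 and 47.8 CPM, and its antibody effect of -0.57 did not pass (adjusted edgeR p 0.149). Crybb1, a crystallin, fell by 2.15 with deletion and 1.47 with antibody. Selplg, a ligand of P-selectin, fell by 1.87 and 1.18. Tmem119, a microglial membrane protein, fell by 1.94 and 1.44, with a difference of -0.50 (SE 0.247).

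Slc2a5, the fructose transporter GLUT5 (chr4:150119283-150144169), was the one gene of the list with a higher difference. It was at 92.1, 86.2, 138 and 103 CPM in Het and 22.7, 27.2 and 23.3 CPM in KO, and at 136, 131, 136 and 108 CPM in a-gp120 and 14.8, 14.8, 27.6 and 14.2 CPM in a-IL34. It fell with deletion by 2.13 (adjusted edgeR p 0.00108) and with antibody by 2.82 (adjusted edgeR p 9.45e-05). The difference was 0.69 (SE 0.309, unadjusted edgeR p 0.0439), and it passed that unadjusted level in 3 of 15 fits that left out 1 library.

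**Figure D4:**
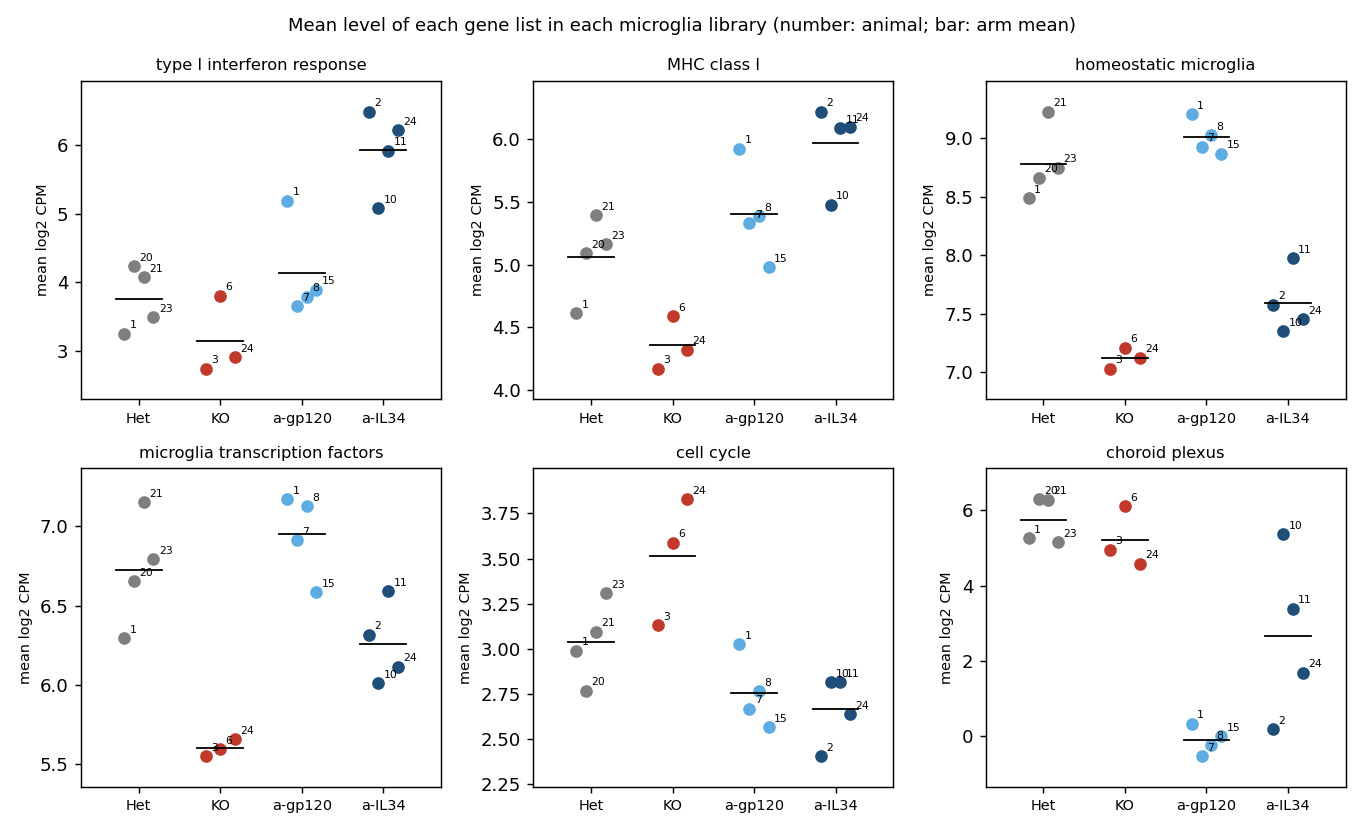
Mean log2 CPM of 6 gene lists in each of the 15 microglia libraries, by arm, with animal numbers beside the points and a bar at each arm mean. Animal 1 stands above the other a-gp120 animals for type I interferon genes, the 3 KO libraries lie together for homeostatic genes and transcription factors, and choroid plexus genes are high in every genotype library and in a-IL34 animal 10.

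Higher differences were fewer. Several of the named genes have roles in cell division, but they were picked by p and an excess of such genes was not tested. Of 30 cell cycle genes tested 29 had a difference above 0, with a median of 0.56 against -0.01 over all genes, made up of 0.62 with deletion and -0.03 with antibody. At an unadjusted edgeR p under 0.05 the difference was higher for 5, where 0.646% of all genes were: Prc1, Mki67, Cenpf, Birc5 and Top2a. That count became 8 without Het 23, 12 without KO 3, 3 without KO 24, 8 without a-gp120 7, 9 without a-gp120 15 and 10 without a-IL34 10. With deletion 7 of the 30 rose at an adjusted edgeR p under 0.05, where 2.17% of all genes did. These 7 became 9 without Het 1, 1 without Het 21 or KO 6 and 0 without Het 20 or KO 24. In 7 of the 30 every KO library was above every Het library, close to the 19% of all genes that showed the same.

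Mki67, the proliferation marker Ki-67, was at 71.1, 104 and 109.9 CPM in KO against 51.9, 44.5, 57.4 and 69.1 CPM in Het. It was at 31.3, 46.9, 43.4 and 35.2 CPM in a-IL34 and 55.1, 44.9, 53.9 and 30.8 CPM in a-gp120, which overlap. It rose with deletion by 0.75 (SE 0.227, adjusted edgeR p 0.0441), a call that held in 4 of 15 fits that left out 1 library, and its difference was 0.96 (SE 0.314). Prc1, which bundles microtubules of the spindle midzone, rose with deletion by 0.83 (adjusted edgeR p 0.0234), a call lost without Het 20, Het 21, KO 6 or KO 24, and had an antibody effect of -0.13 (adjusted edgeR p 0.683). Outside the cell cycle list, genes with such roles among the 10 smallest p were Traip, a ubiquitin ligase of replication (0.93, SE 0.282), Knstrn, an adaptor of the spindle (1.05, SE 0.321), Cenpn, a centromere protein (0.74, SE 0.229), and Kif2c, a microtubule-depolymerizing kinesin (1.28, SE 0.420). For none of them did the effect of either route pass the adjusted threshold. Besides these and Igsf10 (above), the 10 held Nme1, Gtsf2 and Cd209e, which had levels under 1 CPM in every library. Nme1 shares its span with Nme1nme2, and its counts may be split between them. Mvd, of the cholesterol pathway, was the one gene of 24 in its list with a higher difference at an unadjusted edgeR p under 0.05 (0.70, SE 0.262), where 0.646% of all genes were. Of the 24 differences 21 were above 0, the list's medians were 0.62 with deletion and 0.36 with antibody, and in 16 of the 24 every KO library lay above every Het library, against 19% of all genes.

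**Figure D5:**
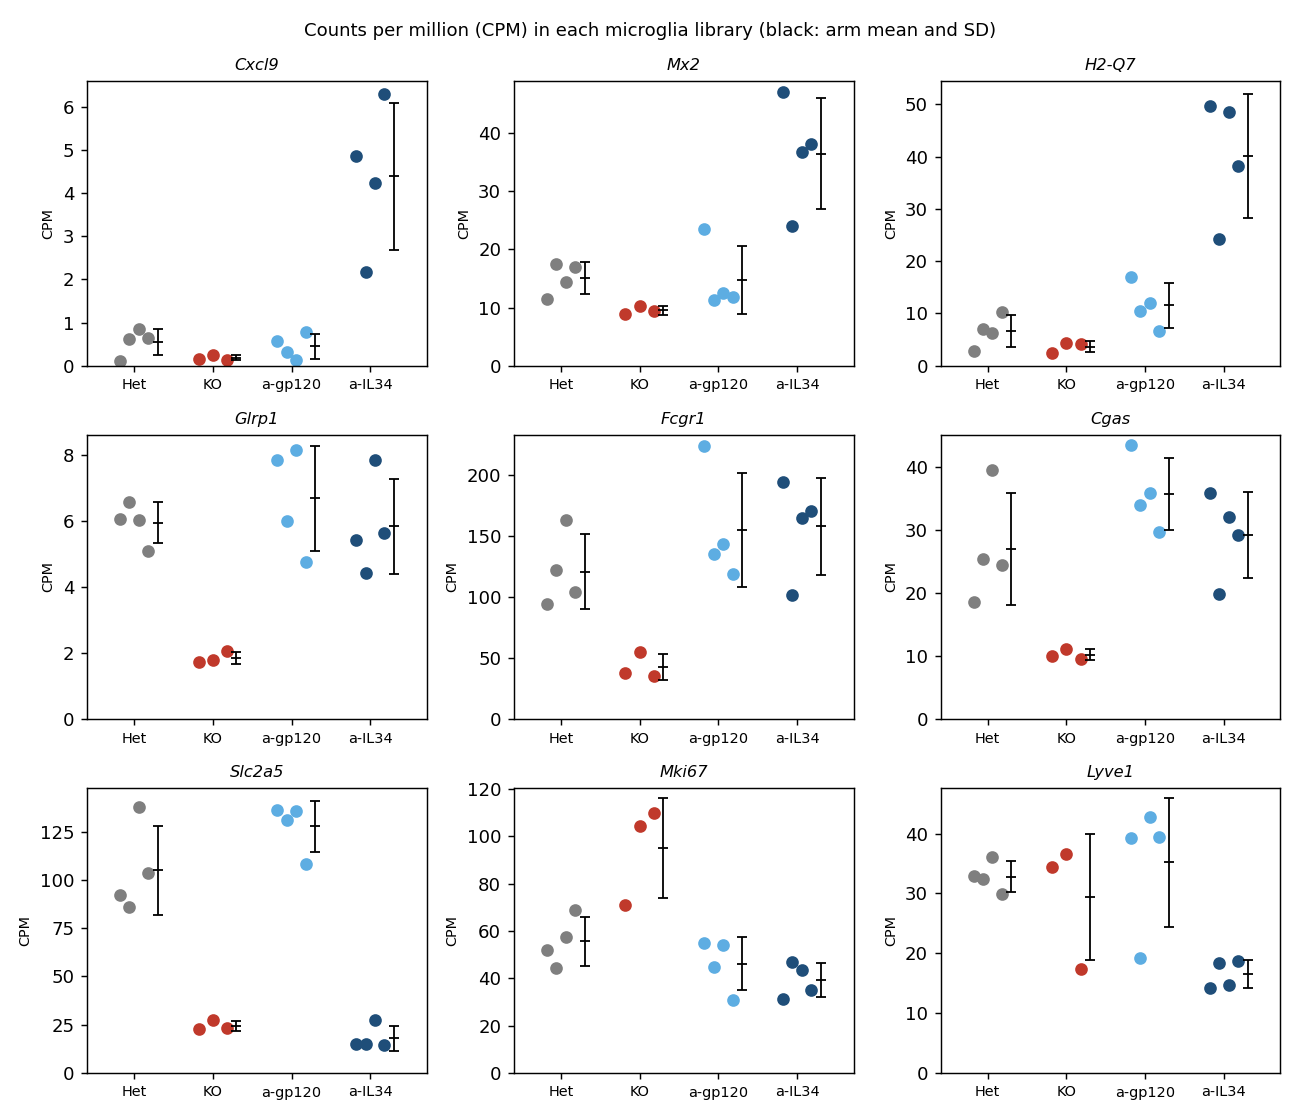
Level in CPM of 9 genes in each microglia library, by arm, with the arm mean and SD in black. Cxcl9, Mx2 and H2-Q7 are high in a-IL34, Glrp1, Fcgr1 and Cgas are low in KO alone, Slc2a5 is low in KO and a-IL34, Mki67 is highest in KO and Lyve1 is lowest in a-IL34 and 1 KO library.

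Border-associated macrophages, the macrophages of meninges and vessels that also carry CD11b, were represented by 15 genes, of which 1 had a lower difference at an unadjusted edgeR p under 0.05 (3.3% of all genes) and 1 a higher one (0.646% of all genes). Of the 15 differences 12 were above 0, with a median of 0.29, and the medians were -0.21 with deletion and -0.55 with antibody. Siglec1, a sialic acid receptor that interferon also induces, lay at the other end of the list and had a difference of -1.85 (SE 0.521) and an antibody effect of 1.17 (adjusted edgeR p 0.0684), with 83.9, 46.0, 73.8 and 85.2 CPM in a-IL34 and 53.8, 19.7, 31.1 and 21.4 CPM in a-gp120, which overlap through animal 1. Lyve1, a hyaluronan receptor, fell with antibody by 1.10 on the log2 scale (adjusted edgeR p 0.0325), from 39.3, 19.2, 42.9 and 39.5 CPM to 14.2, 18.4, 14.7 and 18.7 CPM, and had a deletion effect of -0.15 (adjusted edgeR p 0.709). Its call held in 7 of 15 fits that left out 1 library. The lectin Cd209e was counted in 1 of 4 a-IL34 libraries, at 0.0230 CPM, and stood at 0.0406 to 0.252 CPM in a-gp120, 0.220 to 0.491 CPM in Het and 0.450 to 0.684 CPM in KO.

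Choroid plexus genes had the largest median difference in size of the 28 lists, and their means varied widely between the a-IL34 libraries (SD 2.23, n = 4) and less between the a-gp120 libraries (SD 0.36, n = 4). Of 12 tested 11 had a lower difference at an unadjusted edgeR p under 0.05, where 3.3% of all genes did, with a median of -3.74. Ttr, transthyretin, the main product of this epithelium, was at 1491, 3296, 3592 and 1502 CPM in Het and 1267, 2807 and 1049 CPM in KO. It was at 1.34, 0.0617, 2.90 and 0.146 CPM in a-gp120 and at 0.316, 1963, 515 and 18.9 CPM in a-IL34 animals 2, 10, 11 and 24. The mean log2 CPM of the 12 genes ran from 5.15 to 6.29 in Het, 4.58 to 6.11 in KO, -0.52 to 0.33 in a-gp120 and 0.19 to 5.36 in a-IL34. In a-IL34 animals 2, 10, 11 and 24 the choroid plexus means were 0.19, 5.36, 3.39 and 1.68, and the type I interferon means of the same animals were 6.48, 5.08, 5.92 and 6.21. Of the astrocyte, oligodendrocyte, neuronal, and endothelial and mural lists, 0 genes had a difference at an unadjusted edgeR p under 0.05. Their medians were above 0 with each route: 0.93 with deletion and 0.63 with antibody for astrocyte genes, 0.93 and 0.75 for oligodendrocyte genes, 1.00 and 0.82 for excitatory neuron genes, 0.80 and 0.88 for inhibitory neuron genes and 0.08 and 0.08 for endothelial and mural genes. In 11 of 12 astrocyte genes every KO library lay above every Het library, where 19% of all genes showed the same. Neutrophil and monocyte genes had means of 2.11 to 2.72 in Het, 2.32 to 2.98 in KO and 3.88 to 4.94 in a-IL34. In a-gp120 their mean was 4.75 in animal 1 and 2.56 to 3.97 in the other animals. Of these 18 genes 1 had a lower difference at an unadjusted edgeR p under 0.05, where 3.3% of all genes did. It was Csf3r, which microglia also express (difference -0.94, SE 0.365). The part of this in the differences above was not tested.

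For IL-34 and its receptor the differences did not pass an unadjusted edgeR p under 0.05. Il34 (chr8:110741829-110805924) was at 7.73, 9.82, 7.19 and 4.89 CPM in Het, 6.67, 5.15 and 6.25 CPM in KO, 9.83, 12.7, 17.1 and 12.6 CPM in a-gp120 and 15.5, 14.9, 18 and 16.1 CPM in a-IL34. The KO libraries lay within the range of Het, and the counts cover the whole gene span, including stretches shared with Gm15894 and Gm15895 on the other strand. Its difference was -0.65 (SE 0.305), with a 95% interval from -1.30 to 0.01. Csf1r fell with both routes, by 1.6 with deletion (adjusted edgeR p 0.00206) and 1.03 with antibody (adjusted edgeR p 0.0221) on the log2 scale, and the difference was -0.57 (95% interval -1.30 to 0.16). The antibody call of Csf1r was lost without a-gp120 1, 7 or 8 and without a-IL34 2, 10 or 24. Csf1 had effects of -0.96 and -0.69, neither past the threshold, and a difference of -0.27 (SE 0.530). Among 102 genes tested within 5 Mb of the Il34 start, 5 had a lower difference at an unadjusted edgeR p under 0.05, near the 3.3% of all genes, and 0 a higher one. With deletion 15 of the 102 fell at an adjusted p under 0.05, near the 12.4% of all genes. The 4 with the smallest p were Marveld3, Zfp90, Psmb10 and Pdf. Zfp90, a zinc finger repressor, fell with both, by 1.16 with deletion and 0.66 with antibody on the log2 scale, the second call being lost in the same 6 fits as that of Csf1r.

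Heat-shock chaperones, which fold damaged proteins, had 1 of 16 genes with a lower difference at an unadjusted edgeR p under 0.05, where 3.3% of all genes did, and 15 of 16 differences were below 0. With deletion 11 fell at an adjusted p under 0.05, where 12.4% of all genes did, and with antibody 0, where 4.54% of all genes did. The median was -0.91 with deletion and -0.49 with antibody, and in 7 of the 16 every a-IL34 library lay below every a-gp120 library, against 12.4% of all genes. A fall with deletion only is not shown. The 11 became 7 without Het 21 or Het 23 and 5 without KO 6 or KO 24, and the 0 became 8 without a-IL34 11, 5 without a-gp120 15 and 1 without Het 21. Hspa1a, an inducible HSP70, fell with deletion by 1.39 (adjusted edgeR p 0.00522) and had an antibody effect of -0.60 (adjusted edgeR p 0.132). Its difference was -0.79 (SE 0.353) in microglia and 0.01 in the forebrain of the same animals.

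The whole forebrain of the same animals gave the contrast a second tissue. There 2 of 19724 genes (0.0101%) passed for the difference at an adjusted edgeR p under 0.05, Il34 and Lgals3bp, both lower, and 399 (2.02%) were lower at an unadjusted edgeR p under 0.05. Il34 stood at 23.4, 19.6, 19.2 and 23.5 CPM in Het forebrain and 6.78, 7.64 and 8.75 CPM in KO, and at 31.8 to 38.9 CPM in a-gp120 and 36.6 to 41.4 CPM in a-IL34. Its difference was -1.58 (SE 0.135, adjusted edgeR p 2.45e-05). Lgals3bp had a difference of -1.76 (SE 0.223, adjusted edgeR p 0.00372), where microglia had -2.70 (SE 0.553). Of the 41 type I interferon genes 35 had a lower difference in forebrain at an unadjusted edgeR p under 0.05, where 2.02% of all genes did. The list's median was -1.82, with -0.12 for deletion and 1.59 for antibody. MHC class I had 9 of 18 at that level, with a median of -0.67. The forebrain median of the cell cycle list was 0.02, where microglia had 0.56, and that of the microglia transcription factors -0.02, where microglia had -0.49. Glrp1, called for deletion alone in microglia, had forebrain effects of -1.54 with deletion (adjusted edgeR p 0.613) and -1.59 with antibody (adjusted edgeR p 0.0879), neither past the threshold. Whether the difference between routes itself differed between microglia and forebrain was tested over all 30 libraries, and 0 genes passed with edgeR (641 at an unadjusted p under 0.05) and 0 with DESeq2 (659). The forebrain count of 2 became 33 without a-IL34 animal 10 and 5 without a-IL34 animal 11.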

How the data were processed

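Bulk RNA-seq of isolated microglia and whole forebrain was available for the same animals. The deposited values are raw counts per gene, which the authors obtained with STAR 2.7.5c on GRCm38, featureCounts 1.6.3 and R 4.4.0, per the submitters' processing notes. The deposited gene length equals the whole gene span for 51183 of 51498 genes matched to the annotation (of 51752), so introns appear to be counted and overlapping genes can share reads; whether strand was used is not given in the sources used here. A total of 6 count columns matched no labelled sample and were not used, 54 symbols were repeated and 8 rows had no symbol.

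The 15 microglia libraries were fitted together in edgeR 4.0.16 (R 4.3.3; quasi-likelihood test, TMM scaling, edgeR's filter on low counts by arm) with 1 term per arm and sex as a covariate. The contrast was (KO minus Het) minus (a-IL34 minus a-gp120), adjusted over all genes tested by Benjamini-Hochberg at 0.05. Standard errors came from the fold change and its F value, and log2 CPM used a prior count of 2. Alternatives were RLE scaling, no filter, DESeq2 1.42.0, limma 3.58.1 (voom with library weights), no sex term, sex by experiment, each experiment alone, and each library left out. The script was tested on simulated data.

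Genes named were the 10 with the smallest p in each direction, Il34, Csf1 and Csf1r, up to 5 genes called for 1 route with the other effect within 0.25 of 0, up to 4 members of a list described and others whose role is given, and up to 4 genes within 5 Mb of Il34. Members, rules and the 28 gene lists were chosen with earlier results of these data known. Libraries are taken as separate animals from their numbers within an experiment (1 and 24 occur in both), and p-values measure the spread between these libraries. Some genes that these rules select are not reported here.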

Additional observations from a re-analysis of the deposited data

Results flagged for a closer look

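In groups of 4 libraries, a library was singled out when its gap to the nearest other library, as a share of the group's range, passed Dixon's 95% value. Of 324 groups of 4 checked 18 passed, where chance alone singles out about 1 in 20.

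Animal 1 was the highest of the a-gp120 libraries. The gap was 0.864 of the range for Mx2, 0.881 for Lgals3bp, 0.862 for Slfn8, 0.901 for Irf7, 0.841 for Oas3 and 0.971 for Irf9. It was 0.83 for Trim21 and 0.874 for Psmb10. The list means gave 0.843 for type I interferon genes and 0.861 for interferon-gamma genes. These are genes induced by interferon, and the animal is a control. Outside these genes, its mean log2 CPM was also the highest of the arm for neutrophil and monocyte genes, at 4.75 against 2.56 to 3.97. For astrocyte genes it was the lowest, at 7.58 against 7.82 to 9.30.

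Other libraries stood apart for single genes. In a-gp120, animal 8 was high for Cd209e (0.835), animal 15 high for Marveld3 (1), which was listed at 0 in the other three, and animal 7 low for Lyve1 (0.892). In a-IL34, animal 10 was high for Cd209e (1), the other three being at 0, and low for Fcgr4 (0.85), and animal 11 was high for Slc2a5 (0.936). In Het, animal 21 was high for H2-T22 (0.876) and animal 1 low for Batf3 (0.876).

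In whole forebrain the deletion and antibody effects differed past the adjusted threshold for Il34, by -1.58 (adjusted edgeR p 2.45e-05), and for Lgals3bp, by -1.763 (adjusted edgeR p 0.00372).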

How the results depend on the processing

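Against 0 genes called for the difference, no filter on low counts gave 1 (Cxcl9), DESeq2 35 and leaving out single libraries 0 to 5. Genes called for deletion (2734) numbered 5153 with DESeq2, 6013 with limma, 976 in the genotype experiment alone and 794 to 6278 without single libraries. Genes called for antibody (988) numbered 2523 with DESeq2, 6796 with limma, 1527 with no sex term, 582 with sex by experiment, 110 in the antibody experiment alone and 312 to 5340 without single libraries. MHC class I genes with a lower difference (15) numbered 9 to 17 without single libraries. Cell cycle genes with a higher difference (5) numbered 9 with no filter, 10 with no sex term and 3 to 12 without single libraries. In forebrain the count of 2 became 114 with no filter, 28 with DESeq2 and 2 to 33 without single libraries. The cause was not tested. The difference of Csf1 (-0.27) was 0.0073 with limma and -0.47 to 0.062 without single libraries, and that of P2ry12 (0.00) was -0.12 to 0.31. Of the single-gene values under alternatives, 1639 kept direction and side of the threshold, 23 passed it newly and 11 changed sign. No difference passed in the main edgeR fit, so keeping the side means staying uncalled or having no adjusted p. Of the medians of lists, 578 moved by less than the spread and 10 by more.

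No paired analysis was possible because the microglia arms compared share fewer than 2 animal numbers within an experiment. Across tissues the same animals gave both libraries, and when each animal formed a replicate block, 0 genes differed in route difference between microglia and forebrain, as without it (563 and 641 at an unadjusted edgeR p under 0.05).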
